A study of Oryza sativa Indica Group with 8 samples.

Results

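The genes described here are 6 rice loci of nitrate and nitrite reduction: 3 nitrate reductases (LOC_Os02g53130, LOC_Os08g36480 and LOC_Os08g36500), 2 nitrite reductases (LOC_Os01g25484 and LOC_Os02g52730) and 1 2Fe-2S ferredoxin (LOC_Os01g64120). They were taken by identifier from tables of 55986 loci, and all 6 were found. All 6 were also among the 18251 loci left by a filter on low counts, LOC_Os02g53130 only through the libraries in which it was high. Their roles are those named in the selection, because the files attach no names to identifiers. They were chosen by role and identifier, with the differences in read counts between the groups of these same 8 libraries already known, so levels, differences and calls below describe these libraries and are no independent evidence about the genes.

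Leaves came from BRS Ligeirinho, an indica rice labelled as sensitive to salt, grown in sand with a nutrient solution. Control plants received water and nutrient solution alone, vegetative-shock plants met salt at stage V4, reproductive-shock plants met it at stage R0-R1, and double-shock plants met it at both stages. Each of the 4 groups had 2 libraries. Neither the amount of salt nor the duration of a shock nor the hour and day of sampling is stated, so a difference in sampling time and an effect of a shock cannot be told apart.

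As background, nitrate reductase turns nitrate into nitrite in the cytosol with electrons from NADH or NADPH. Nitrite then enters the plastid, where nitrite reductase turns it into ammonium with electrons from reduced ferredoxin, a small iron-sulphur protein. In green leaves ferredoxin is itself reduced by photosystem I, and the ammonium passes to glutamine synthetase and glutamate synthase. Nitrite is toxic when it builds up, and transcripts of nitrate and nitrite reductase in plant leaves are known to respond to nitrate supply and to light.

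Libraries held 10464740 to 11727657 counted reads. Levels are given as CPM, the read counts scaled by library size and TMM factors, and are compared between libraries for 1 locus at a time, since locus lengths were not used. The share of reads aligned to more than 1 place was 13.5% to 13.8% in 3 libraries (control replicate 1, reproductive-shock replicate 2 and double-shock replicate 1) and 9.32% to 9.99% in the other 5. Whether replicates were separate plants is not stated, so the spread between libraries, on which standard errors rest, is in part perhaps technical. That spread was pooled over the groups and drawn toward that of other loci. The leaf label was not checked against marker genes, because no identifier carries a name.

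Of the 6 loci, the ferredoxin and both nitrite reductases were far below control in leaves that had met the late shock. The nitrate reductase LOC_Os08g36500 stayed near its control level. Against control, reproductive-shock leaves kept 6.12% of the ferredoxin level, 15.1% of nitrite reductase LOC_Os02g52730 and 25.1% of nitrite reductase LOC_Os01g25484. Double-shock leaves kept more: 13.5%, 37.8% and 39.0%. None of these 3 loci, nor any other locus tested, had an adjusted p below 0.05 in edgeR between double-shock and reproductive-shock leaves. For LOC_Os01g25484 the nearest libraries of these groups stood at 268 and 262 CPM. Against vegetative-shock leaves, double-shock leaves kept 22.3%, 69.5% and 43.8% of these 3 levels. Fewer cells of a type and less RNA per cell cannot be told apart in whole leaves. For 4 of the 6 loci, every library with the late shock lay below every library without it, and 3.04% of all loci tested were separated in that direction. LOC_Os02g53130, among these 4, passed the filter only through its high libraries. Its nearest libraries had 13 reads with the late shock and 15 without it, so its separation is within counting error.

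**Figure D1:**
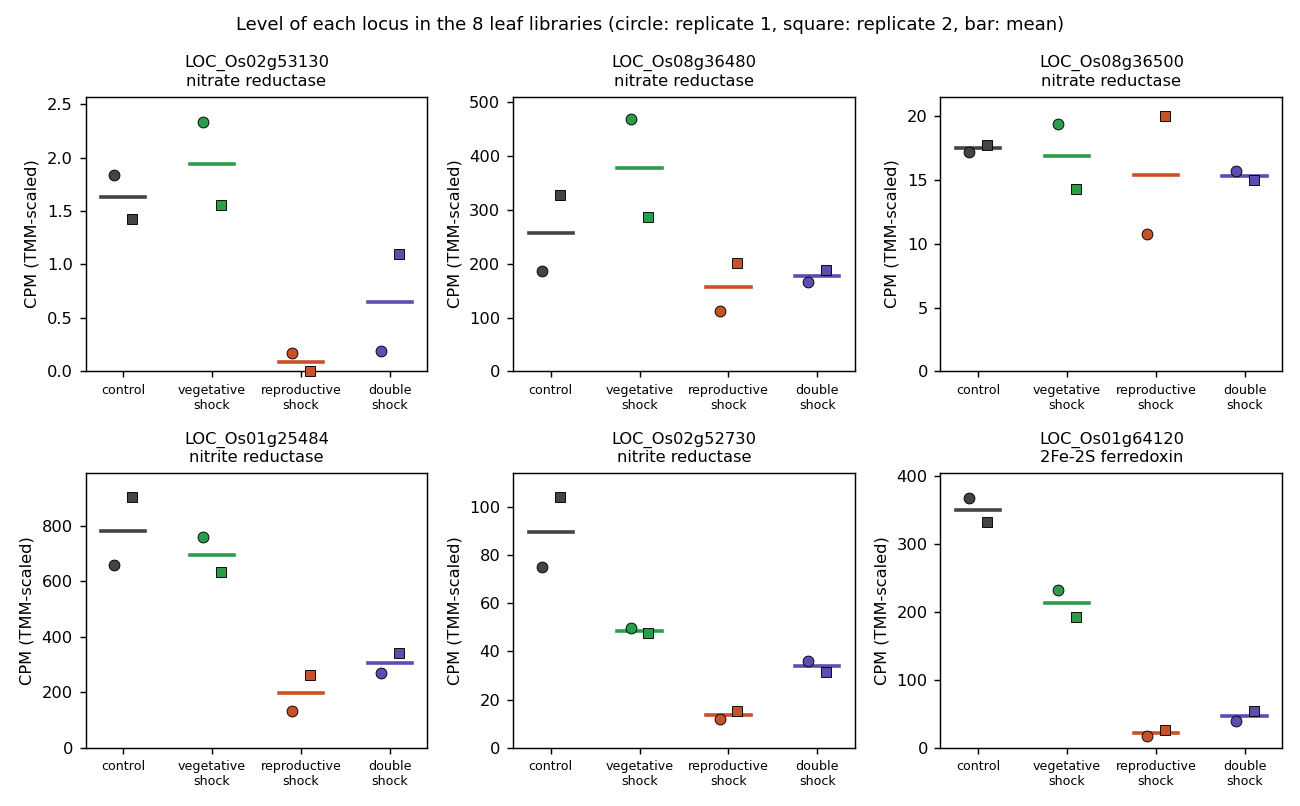
Level of each locus in CPM (vertical axis, from 0) in the 4 groups (horizontal axis); circles are replicate 1, squares replicate 2 and bars group means. The ferredoxin panel shows the widest gap, from 54.8 CPM in the highest library with the late shock to 193 CPM in the lowest without it.

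Among the nitrate reductases, LOC_Os08g36480 (chromosome 8) was read 1288 to 4824 times per library. It stood at 187 and 328 CPM in the control libraries, 469 and 287 CPM in the vegetative-shock libraries, 113 and 201 CPM in the reproductive-shock libraries and 166 and 188 CPM in the double-shock libraries. The vegetative-shock libraries were above all libraries with the late shock, but they and the late-shock libraries overlapped with control, where 1 library stood 1.75-fold above the other. Its log2 fold change was 0.55 (SE 0.34) in vegetative-shock, -0.72 (SE 0.35) in reproductive-shock and -0.54 (SE 0.35) in double-shock plants against control, and none was called, a call being an adjusted p below 0.05 over all loci tested in edgeR's quasi-likelihood test unless another test is named. Between vegetative-shock plants and those with the late shock the ranges did not overlap, with log2 differences of -1.27 (SE 0.35) for the reproductive shock and -1.09 (SE 0.35) for both shocks, which were not called either.

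LOC_Os08g36500, the second nitrate reductase of chromosome 8, is separated from LOC_Os08g36480 by 1 identifier, LOC_Os08g36490, which had 1 to 6 reads per library. LOC_Os08g36500 stood at 17.2 and 17.7 CPM in control, 19.4 and 14.3 CPM after the vegetative shock, 10.8 and 20.05 CPM after the reproductive shock and 15.7 and 15.0 CPM after both. All groups overlapped except double shock with control, which differed by 0.19 on the log2 scale, less than its standard error of 0.27. This was the flattest of the 6 loci, with no log2 fold change beyond 0.19 in size in any comparison of 2 groups. Reads that align equally to both loci of chromosome 8 would be left out of both counts, and how many there are was not tested.

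LOC_Os02g53130 (chromosome 2), the third nitrate reductase, was close to the limit of detection. It had 22 and 15 reads in the control libraries, 24 and 19 after the vegetative shock, 2 and 0 after the reproductive shock, and 2 and 13 after both. In CPM these were 1.84 and 1.43, 2.33 and 1.56, 0.175 and 0, and 0.195 and 1.10. The reproductive-shock libraries were thus the lowest, and the double-shock libraries lay 5.62-fold apart. Pooled, the control libraries had 37 reads and the reproductive-shock libraries 2, a ratio of 17.9 after scaling, with a 95% exact binomial interval of 4.62 to 153. Against vegetative-shock libraries, with 43 reads, the ratio was 20.8 (5.41 to 177). These intervals hold counting error alone, without the spread between replicates. They are no test of the groups, because the locus was chosen with its differences known and passed the filter through its high libraries. A count of 0 in reproductive-shock replicate 2 has a 95% exact Poisson upper limit of 3.69 reads. With the low-count filter, none of the comparisons of this locus was called by edgeR's quasi-likelihood test. The likelihood ratio test called it in 3 (reproductive shock against control and against vegetative shock, and the average over the late shock). Without that filter the quasi-likelihood test called it in the same 3, a setting with 301 to 1291 calls among 30913 loci per comparison.

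The nitrite reductase LOC_Os01g25484 (chromosome 1) was read 1496 to 9495 times per library. It stood at 659.5 and 905 CPM in control, 760.1 and 633 CPM in vegetative-shock, 131 and 262 CPM in reproductive-shock and 268 and 343 CPM in double-shock libraries. Control and vegetative-shock libraries overlapped, and every library with the late shock was below them. From control to the reproductive shock the locus fell from 782 ± 174 to 196 ± 92.6 CPM (SD, n = 2), a log2 fold change of -1.995 (SE 0.32). That call was lost without either library of the control, reproductive-shock or double-shock group and with a model term that marks the 3 libraries of high multiply aligned share, with log2 fold changes between -2.58 and -1.57 over all alternatives. In double-shock plants the level was 305 ± 53.1 CPM (SD, n = 2), and the log2 fold change of -1.36 (SE 0.31) was not called by edgeR but was by DESeq2 and the likelihood ratio test.

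LOC_Os02g52730 (chromosome 2), the other nitrite reductase, had 136 to 1092 reads per library. It stood at 75.1 and 104 CPM in control, 49.6 and 47.7 CPM after the vegetative shock, 11.9 and 15.2 CPM after the reproductive shock and 36.1 and 31.6 CPM after both. No 2 groups overlapped, and the order of levels was control, vegetative shock, double shock, reproductive shock. From control to the reproductive shock it fell to 13.5 ± 2.33 CPM from a control mean of 89.6 ± 20.5 (SD, n = 2), or by a log2 fold change of -2.73 (SE 0.19), a call lost without reproductive-shock replicate 1 (log2 fold change in the range -2.94 to -2.47 over all alternatives). In double-shock plants it fell to 33.8 ± 3.17 CPM (log2 fold change -1.40, SE 0.18), a call lost without control replicate 2, without either double-shock library, in a fit restricted to the compared groups and with the term for multiply aligned reads. The step from control to vegetative-shock plants, to 48.7 ± 1.36 CPM, was -0.88 (SE 0.18) on the log2 scale and was not called by edgeR. DESeq2 and the likelihood ratio test each called this 1 of the 6 loci in that comparison, where they called 0.701% and 0.959% of all loci.

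The ferredoxin LOC_Os01g64120 (chromosome 1), of the family of small proteins that pass electrons to nitrite reductase and other plastid enzymes, had 199 to 4402 reads per library. It stood at 368 and 332 CPM in control, 232 and 193 CPM in vegetative-shock, 17.4 and 25.5 CPM in reproductive-shock and 39.8 and 54.8 CPM in double-shock libraries. The 4 groups did not overlap and had the same order as those of LOC_Os02g52730. The lowest library without the late shock was 3.53-fold above the highest library with it. From control to the reproductive shock the log2 fold change was -4.03 (SE 0.24), the 22nd most negative of 18251. Against vegetative-shock plants, the reproductive-shock level was lower by a log2 difference of -3.31 (SE 0.23), the 6th most negative, a call lost without reproductive-shock replicate 1 (log2 differences of -3.62 to -3.06 over all alternatives).

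**Figure D2:**
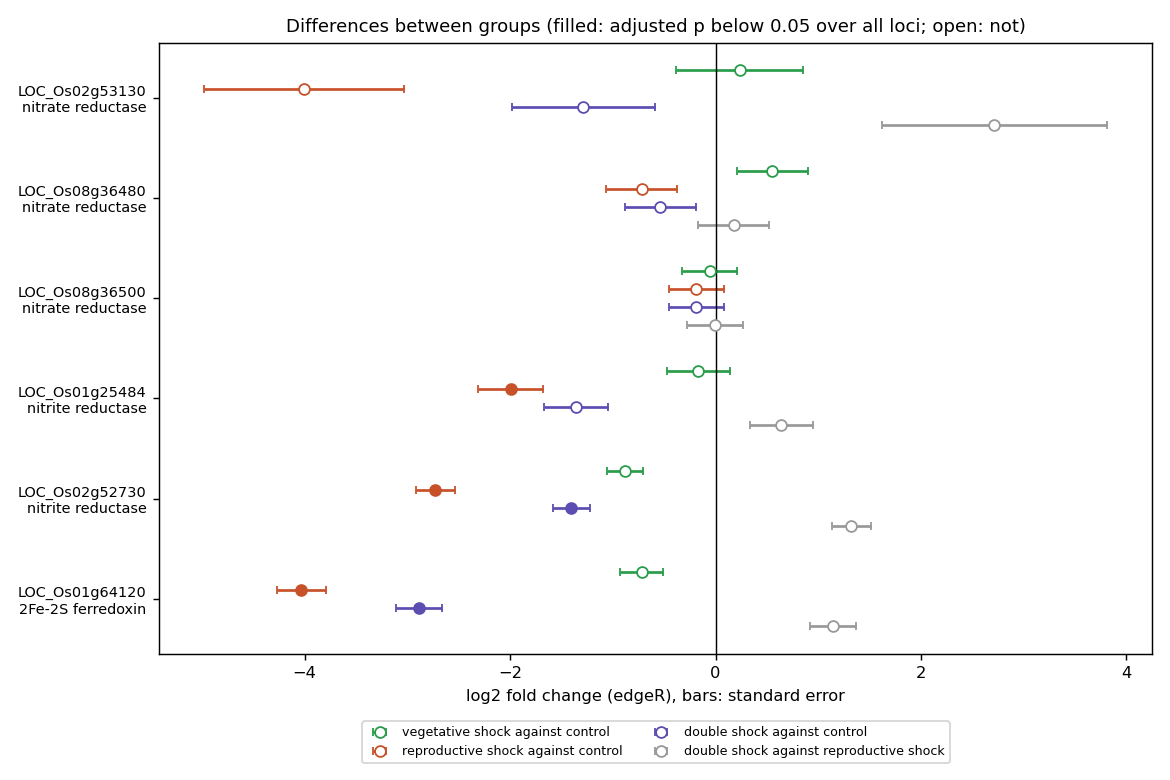
Log2 fold change of each locus (horizontal axis, bars are standard errors) in 3 comparisons with control and in double-shock against reproductive-shock plants; filled points passed an adjusted p of 0.05 over all loci and open points did not. Both nitrite reductases and the ferredoxin are filled for the reproductive shock, from -4.03 to -1.995, and 2 of these 3 for both shocks.

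Counted over the 6 loci, 3 fell and none rose after the reproductive shock against control, where 0.389% of all loci fell. Their median log2 fold change was -2.36, beside 0.00 over all loci tested. After both shocks 2 fell and none rose, against 0.0931% of all loci, and the median was -1.32 beside 0.01 over all loci. These 2 comparisons share the control libraries. After the vegetative shock 0 were called by edgeR, against 0.0329% of all loci, with 2 of the 6 and 7.7% of all loci at an unadjusted p below 0.05; the median was -0.11 beside 0.00. Because the loci were chosen with these differences known, nothing is read from how their counts stand to the background.

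DESeq2 and the likelihood ratio test called more loci than edgeR's quasi-likelihood test in every comparison. For both shocks against control each called 3 of the 6, the nitrite reductase LOC_Os01g25484 being the one added, with 1.27% and 1.97% of all loci. For the reproductive shock against control DESeq2 called 3 (2.38% of all loci) and the likelihood ratio test 4 (3.3%), adding LOC_Os02g53130. In double-shock against vegetative-shock plants each called 2, adding LOC_Os01g25484, with 0.619% and 0.899% of all loci. In reproductive-shock against vegetative-shock plants DESeq2 called 3 (0.389%), adding LOC_Os01g25484, and the likelihood ratio test 4 (0.531%), adding LOC_Os02g53130 as well. The nitrate reductase LOC_Os08g36500 was called by no test in any comparison.

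Plants with and without the late shock can also be compared among those that had met the early one, in double-shock and vegetative-shock libraries that the comparisons with control use as well. All 6 log2 fold changes of double-shock against vegetative-shock plants were negative, from -2.17 for the ferredoxin to -0.13 for LOC_Os08g36500, with a median of -1.14 beside 0.00 over all loci. The ferredoxin was the single call by edgeR, where 0.0438% of all loci fell, and it was lost without either library of the vegetative-shock or reproductive-shock group, without double-shock replicate 1, in a fit restricted to the compared groups and with the term for multiply aligned reads (log2 differences of -2.42 to -1.97 over all alternatives). LOC_Os02g53130 had -1.52 (SE 0.69), which became -3.24 without double-shock replicate 2 and -0.82 without replicate 1. LOC_Os01g25484 had -1.19 (SE 0.31), LOC_Os08g36480 -1.09 (SE 0.35) and LOC_Os02g52730 -0.53 (SE 0.18). For 5 of the 6 the library ranges did not overlap, LOC_Os08g36500 being the exception, and 18.9% of all loci were separated in that direction. For LOC_Os02g53130, 1 of these 5, the nearest libraries had 13 and 19 reads. In reproductive-shock against vegetative-shock plants, 2 of the 6 fell, the ferredoxin and LOC_Os02g52730 (log2 fold change -1.85, SE 0.19), as did 0.0274% of all loci. LOC_Os02g52730 lost that call without either library of either group and with the term for multiply aligned reads.

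Averaged over plants with and without the early shock, the log2 difference between plants with and without the late shock was -3.10 (SE 0.16) for the ferredoxin, -1.63 (SE 0.13) for LOC_Os02g52730 and -1.59 (SE 0.22) for LOC_Os01g25484. These 3 falls were called, as were falls of 0.225% of all loci, and LOC_Os01g25484 lost its call without control replicate 2, vegetative-shock replicate 1, reproductive-shock replicate 1 or either double-shock library and with the term for multiply aligned reads (-1.89 to -1.38 over all alternatives). LOC_Os02g53130 had -2.76 (SE 0.60), LOC_Os08g36480 -0.90 (SE 0.25) and LOC_Os08g36500 -0.16 (SE 0.19), none of them called by edgeR, while the likelihood ratio test (2.84% of all loci) called the first 2 of these. The value of LOC_Os02g53130 became -4.36 without reproductive-shock replicate 1, the library that held the group's 2 reads.

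**Figure D3:**
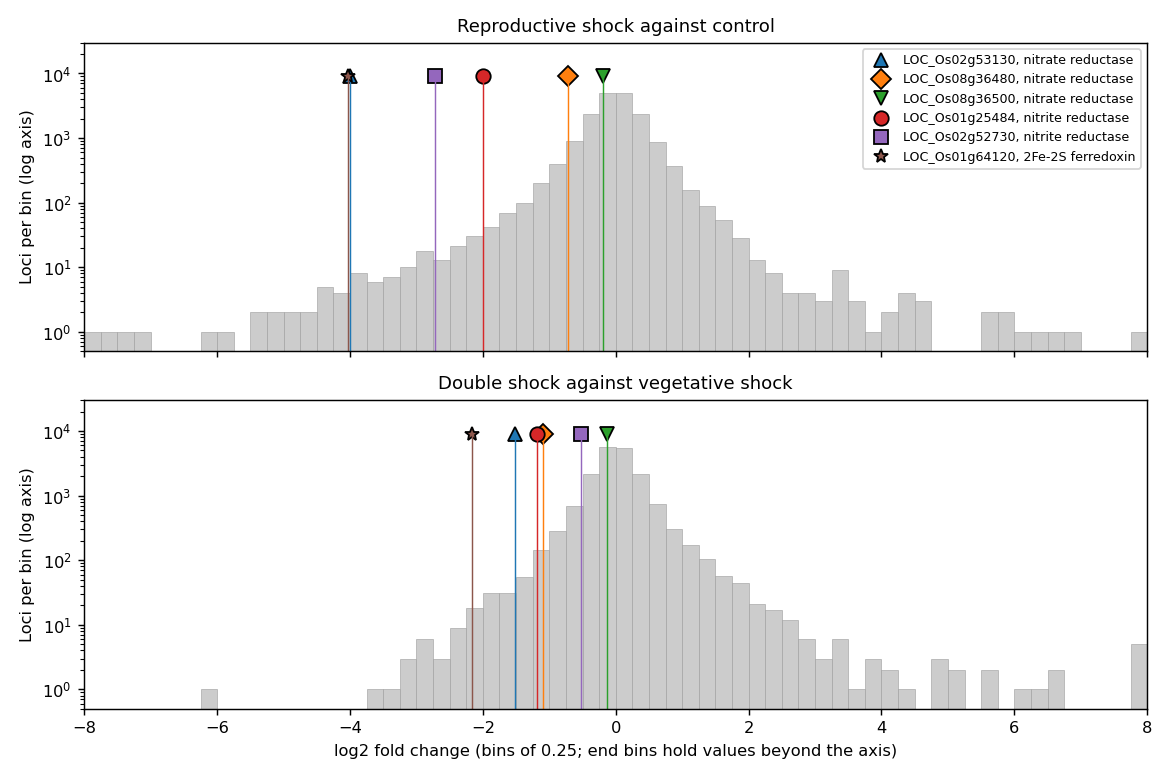
Number of loci per bin of log2 fold change (grey bars, log axis, 18251 loci) for the reproductive shock against control (top) and for double-shock against vegetative-shock plants (bottom), with the 6 loci marked by symbols. In the top panel the ferredoxin and LOC_Os02g53130 lie at -4.03 and -4.00, and in the bottom panel all 6 lie between -2.17 and -0.13.

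The early shock went with lower levels of 2 of these loci in plants without the late shock and with higher levels in plants with it. LOC_Os02g52730 was at 54.3% of the control mean after the vegetative shock alone, but double-shock plants had 2.50-fold the level of reproductive-shock plants. The ferredoxin was at 60.7% of control after the vegetative shock and 2.21-fold higher in plants with both shocks than after the late one alone. For both loci the ranges of the groups compared did not overlap in either step, but edgeR's quasi-likelihood test called neither locus in either step. Of all loci tested, 17.8% were separated downward in the first and 20.5% upward in the second. These shares are for each step alone. The interaction, the log2 effect of the early shock in plants with the late shock minus that in plants without it, was 2.20 (SE 0.26) for LOC_Os02g52730 and 1.86 (SE 0.30) for the ferredoxin. The first was called, where 0.0712% of all loci had a called positive interaction. The second was not called by that test but was by robust quasi-likelihood (0.29% of all loci), DESeq2 (0.959%) and the likelihood ratio test (1.36%). The call of LOC_Os02g52730 was lost without control replicate 2, either vegetative-shock library, either reproductive-shock library or double-shock replicate 1, with values between 1.94 and 2.42 over all alternatives.

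For LOC_Os01g25484 the interaction was 0.81 (SE 0.43) and was not called. Its vegetative-shock and control libraries overlapped, and double-shock libraries, at 268 and 343 CPM, were just above the reproductive-shock libraries at 131 and 262 CPM (log2 difference 0.64, SE 0.31, not called). The interaction was 2.48 (SE 1.28) for LOC_Os02g53130 (5.66 without reproductive-shock replicate 1, 1.62 without replicate 2 and 0.77 without double-shock replicate 2), -0.38 (SE 0.49) for LOC_Os08g36480 and 0.06 (SE 0.38) for LOC_Os08g36500, none of them called. No locus of the whole table was called by edgeR between double-shock and reproductive-shock plants (0% of 18251), where 3 of the 6 had an unadjusted p below 0.05, as had 8.05% of all loci. DESeq2 and the likelihood ratio test each called 2 there, LOC_Os02g52730 and the ferredoxin, with 0.394% and 0.521% of all loci. Averaged over plants with and without the late shock, log2 differences between those with and without the early shock were -0.03 to 0.37 in 5 of the loci and 1.48 (SE 0.64) in LOC_Os02g53130 (3.07 without reproductive-shock replicate 1 and 0.62 without double-shock replicate 2). Again edgeR called none among the 6 or over all loci (0%), with 1 of the 6 and 5.78% of all loci at an unadjusted p below 0.05. DESeq2 and the likelihood ratio test called none of the 6 either, with 0.121% and 0.0986% of all loci.

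**Figure D4:**
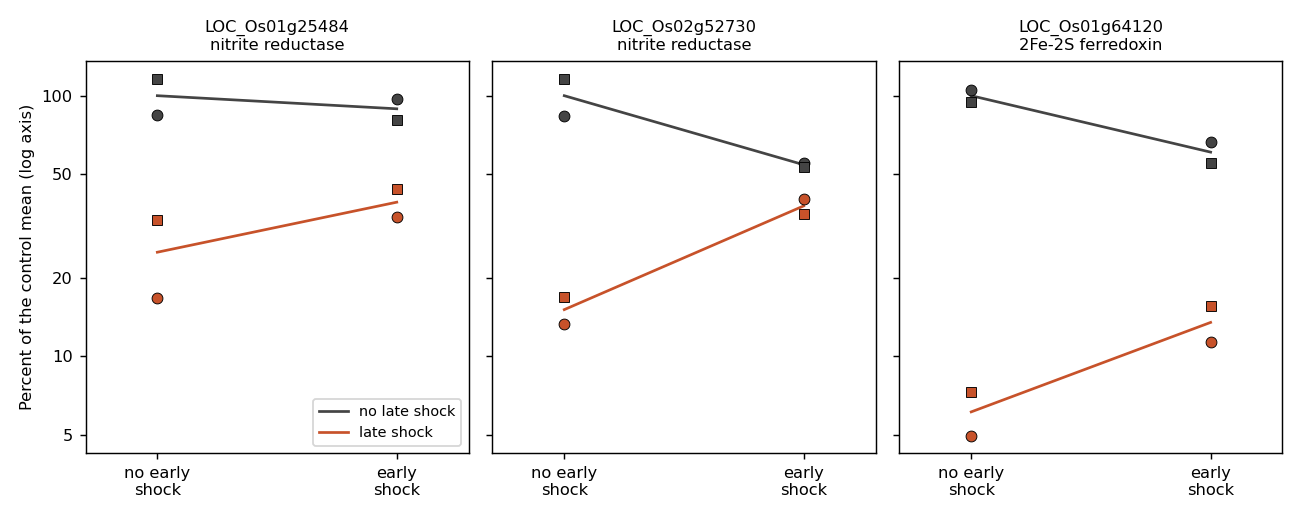
Level as percent of the control mean (log axis) without and with the early shock, for plants without (grey) and with (orange) the late shock; circles are replicate 1, squares replicate 2, and lines join group means. For LOC_Os02g52730 the lines run from 100% to 54.3% and from 15.1% to 37.8%, and for the ferredoxin from 100% to 60.7% and from 6.12% to 13.5%.

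Libraries with a high and a low share of multiply aligned reads were also compared among themselves. Each set had 1 library of the control, the reproductive-shock and the double-shock group. The ferredoxin stood lower in the reproductive-shock than in the control library by a log2 ratio of -3.85 in the high-share set and -4.26 in the low-share set. For LOC_Os02g52730 these ratios were -2.31 and -3.13, and for LOC_Os01g25484 they were -1.33 and -2.79. LOC_Os08g36480 was at 0.10 in the high-share set and -1.54 in the low-share set, and LOC_Os08g36500 at 0.22 and -0.72, so both changed sign. Between double-shock and reproductive-shock libraries LOC_Os02g52730 had 1.25 and 1.41 and the ferredoxin 0.64 and 1.65, whereas LOC_Os01g25484 had 0.03 and 1.39. From control to double shock the ratios were -3.21 and -2.60 for the ferredoxin, -1.06 and -1.72 for LOC_Os02g52730, and -1.30 and -1.40 for LOC_Os01g25484. For LOC_Os02g53130, with its few reads, they were -3.24 and -0.38. LOC_Os08g36480 had -0.17 and -0.80, and LOC_Os08g36500 -0.13 and -0.24. The vegetative-shock group has no library in the high-share set.

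Ratios of reads between 2 loci in the same library do not depend on library scaling. The log2 ratio of ferredoxin to nitrite reductase LOC_Os01g25484 was -0.84 and -1.44 in the control libraries, -1.71 in both vegetative-shock libraries, -2.91 and -3.36 in the reproductive-shock libraries and -2.75 and -2.65 in the double-shock libraries. All 4 libraries with the late shock were below all 4 without it, so the ferredoxin was lower by more than this nitrite reductase was. Against the control mean of -1.14 ± 0.43 (SD, n = 2), the reproductive-shock mean differed by -1.99 and the double-shock mean by -1.55 log2 units.

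Between the nitrite reductases, the log2 ratio of LOC_Os02g52730 to LOC_Os01g25484 was -3.13 and -3.12 in control, -3.94 and -3.73 after the vegetative shock, -3.45 and -4.10 after the reproductive shock and -2.89 and -3.44 after both; this pair was added after the data were seen. Both groups with a single shock were below control, while the double-shock libraries lay on either side of it. For the nitrate reductases of chromosome 8, LOC_Os08g36500 over LOC_Os08g36480, the ratio was -3.44 and -4.21 in control and -4.59 and -4.33 after the vegetative shock. It was -3.38 and -3.32 after the reproductive shock and -3.40 and -3.64 after both. The vegetative-shock libraries were the lowest, and control replicate 1 lay among the libraries with the late shock. Over LOC_Os02g53130, with its few reads, the mean ratio of LOC_Os01g25484 was 8.86 ± 0.57 in control and 10.8 ± 2.24 in the reproductive-shock group (SD, n = 2), and that of LOC_Os08g36480 was 7.22 ± 0.82 and 10.51 ± 2.12. In both cases the spread between the reproductive-shock libraries was too wide to read a size from.

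**Figure D5:**
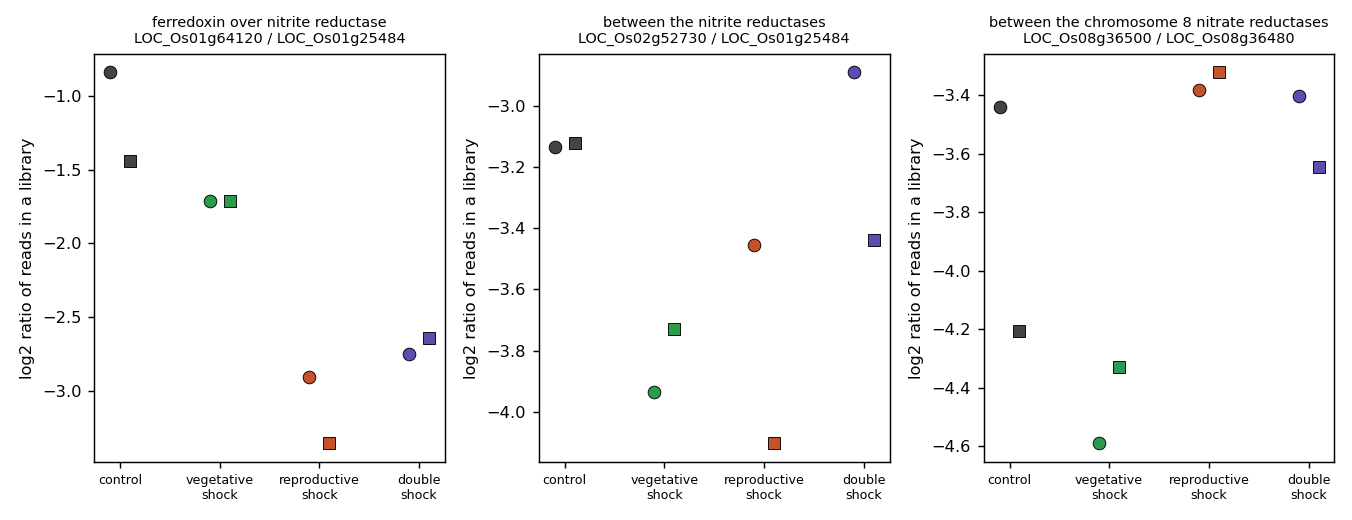
Log2 ratio of reads between 2 loci in each library (vertical axes) by group; circles are replicate 1 and squares replicate 2. In the left panel the libraries with the late shock lie between -3.36 and -2.65 and the others between -1.71 and -0.84.

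Patterns were compared as the root mean square difference of log2 CPM, centred on each locus's mean, over the 8 libraries, which all pairs share. By this measure LOC_Os01g25484 ranked 2 of 18250 loci in nearness to LOC_Os02g52730, and LOC_Os02g52730 ranked 5 for LOC_Os01g25484, at a difference of 0.39 log2 units. The median locus differed from them by 1.02 and 0.93. The loci were chosen with their differences in these libraries known, so nothing is read from their nearness to one another. For LOC_Os08g36500, from which the median locus differed by 0.35, the other loci of the 6 ranked from 14286 to 18185. From LOC_Os08g36480, with a median of 0.64, LOC_Os08g36500 ranked 330 at a difference of 0.47. Nearest to the ferredoxin were LOC_Os06g27860 (0.63) and LOC_Os03g58300 (0.72), with LOC_Os02g53130, LOC_Os02g52730 and LOC_Os01g25484 in ranks 5, 6 and 8 (12, 4 and 5 with a prior count of 5 in place of 2). Seen from LOC_Os02g53130, the ferredoxin ranked 4, but 3298 with a prior count of 5. LOC_Os06g27860, which was also nearest to LOC_Os02g53130 (0.69) but ranked 28 for it with a prior count of 5, went from 19.1 ± 6.48 CPM in control to 16.3 ± 11.4, 2.699 ± 0.73 and 4.12 ± 1.56 CPM after the vegetative, reproductive and both shocks (SD, n = 2). The nearest to LOC_Os01g25484 was LOC_Os12g25200 (0.29), to LOC_Os02g52730 LOC_Os12g17430 (0.35), to LOC_Os08g36480 LOC_Os07g02900 (0.24) and to LOC_Os08g36500 LOC_Os04g09604 (0.10), which ranked 2 with a prior count of 5. The files give none of these a name.

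Of the 11 loci next to the 6 in identifier order, 4 passed the filter, and edgeR called none of these in any comparison. LOC_Os02g52744, which follows LOC_Os02g52730, had a log2 fold change of 0.21 (SE 0.12) after the reproductive shock. LOC_Os02g53120 and LOC_Os02g53140, on either side of LOC_Os02g53130, had 0.07 (SE 0.59) and 0.40 (SE 0.16). LOC_Os01g64110, before the ferredoxin, had -1.36 (SE 0.55), with 15 to 107 reads per library. Whether counting used strand is not stated, so reads of loci that overlap could not be told apart.

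A wider list of 22 further identifiers was set down from general knowledge of rice for nitrate transport, ammonium assimilation and other ferredoxins with their NADP reductases. No file annotates these identifiers, so no role is attached to any of them. Of the 22, 17 were tested. After the reproductive shock edgeR called 0 of the 17, with 5 at an unadjusted p below 0.05, beside 14.2% of all loci. DESeq2 called 1 and the likelihood ratio test 2, beside the 2.38% and 3.3% of all loci given above. The median log2 fold change of the 17 was 0.00, as over all loci. By list it was 0.32 for nitrate transport (4 tested), -0.02 for ammonium assimilation (6) and 0.00 for other ferredoxins and reductases (7). In double-shock against vegetative-shock plants 1 rose and none fell, where 0.0274% of all loci rose. The same locus was called for the interaction (log2 1.62, SE 0.21), as were positive interactions of 0.0712% of all loci. It was also called for the average late shock (log2 0.68, SE 0.11), where 82 of 18251 loci were called in either direction. That locus, LOC_Os05g48200, named here after its values were seen, stood at 14.3 and 16.6 CPM in control, 9.33 and 10.2 CPM after the vegetative shock, 13.2 and 15.0 CPM after the reproductive shock and 28.0 and 26.8 CPM after both. Its libraries with both shocks were above all others, unlike any of the 6 loci of nitrate and nitrite reduction.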

How the data were processed

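The authors deposited raw read counts per locus, 1 table per library, from TruSeq libraries of leaf RNA. The submitters' processing notes name HTSeq 0.11.1, STAR 2.7, Trimmomatic, edgeR 3.8 and FastQC 0.11.7 without settings. The genome build, annotation and strand setting are not stated. The 5 HTSeq summary lines (14.97% to 19.2% of the reads in a table) were dropped.

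One edgeR 4.0.16 model (R 4.3.3) held all 8 libraries with group as its single term, after filterByExpr and TMM scaling, and had 4 residual degrees of freedom. Contrasts were tested by two-sided quasi-likelihood F tests, adjusted by Benjamini-Hochberg over 18251 loci, with calls at an adjusted p below 0.05. SE is the size of the log2 fold change over the square root of F. F uses a spread pooled over groups and drawn toward that of all loci, with a median of 4.77 prior degrees of freedom. Log2 CPM used a prior count of 2 and read ratios one of 0.5. The procedure was tested on simulated data, with changes placed only in loci above the median level and only for the late shock. Loci below that level and the interaction were given no change, so finding such changes was not tested.

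The members and lists were chosen with earlier results of these data known. Besides the 6 loci, the text names their neighbours in identifier order, the loci nearest in pattern (2 for the ferredoxin, 1 for each other) and LOC_Os05g48200. Other settings tried were RLE scaling, 2 other filters (none, or 1 CPM in at least 2 libraries), 3 other tests (robust quasi-likelihood, likelihood ratio, DESeq2 1.42.0), fits restricted to the compared groups, a replicate block, a term for libraries with over 12% of reads multiply aligned, prior counts of 5, and each library left out.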

Additional observations from a re-analysis of the deposited data

Results flagged for a closer look

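LOC_Os02g52730, a nitrite reductase, had opposite differences after the early shock in plants without and with the late shock: -0.88 and 1.32 on the log2 scale, with no overlap between libraries in either case. Of all loci, 17.8% were separated downward in the first case and 20.5% upward in the second. In neither case was LOC_Os02g52730 called by edgeR's quasi-likelihood test. The difference between the 2 effects was 2.20 (SE 0.26) and passed the edgeR test over all loci, as did positive differences in 0.0712% of loci. That call was lost without some single libraries, as given above, with values between 1.94 and 2.42 over all alternatives.

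LOC_Os01g64120, the ferredoxin, had -0.72 and 1.14 in the same steps, again without overlap, and neither was called by edgeR's quasi-likelihood test. The difference of 1.86 (SE 0.30) did not pass that test, but passed by robust quasi-likelihood (0.29% of all loci), DESeq2 (0.959%) and the likelihood ratio test (1.36%). It also passed without the low-count filter, a setting with 301 to 1291 calls in the 9 comparisons. It did not pass with RLE scaling, the filter of 1 CPM, the replicate block or the term for multiply aligned reads. Fits without 1 library left it uncalled too. Values were between 1.60 and 2.16 over all alternatives.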

How the results depend on the processing

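In reproductive-shock plants against control 3 of the 6 loci fell, with 5 without the low-count filter, 4 by the likelihood ratio test and 2 with the term for multiply aligned reads. Over all loci, the 9 comparisons had 0 to 112 calls each, 301 to 1291 (of 30913 loci) without the filter, 18 to 603 by the likelihood ratio test and 22 to 434 by DESeq2. Robust quasi-likelihood gave 0 to 150, a replicate block 0 to 131 and the term for multiply aligned reads 0 to 100. Fits of the compared groups alone gave 0 to 175 over 6 comparisons. For both shocks against control the main count was 2, with 4 without the filter, 3 each by DESeq2 and the likelihood ratio test, and 1 in a fit of the compared groups or with the term for multiply aligned reads. For the vegetative shock against control it was 0, with 2 without the filter and 1 each by the likelihood ratio test and DESeq2. For double against reproductive shock 0 became 3 without the filter and 2 by either of those tests. For double against vegetative shock 1 became 3 without the filter, 2 by either test, and 0 in the restricted fit or with the term for multiply aligned reads. For reproductive against vegetative shock 2 became 5 without the filter, 4 by the likelihood ratio test, 3 by DESeq2 and 1 with that term. For the interaction 1 became 3 without the filter and 2 with robust quasi-likelihood, the likelihood ratio test or DESeq2. For the average late shock 3 became 5 without the filter or by the likelihood ratio test, and 2 with that term. The cause of these changes was not tested, and all calls under every setting had the direction given in the report. Leaving out 1 library also changed which loci were called, as given by locus above. Such a fit leaves a group with 1 library, assumed to vary like the others, so its calls are not counted here. With a prior count of 5, the mean log2 ratios over LOC_Os02g53130 became 8.20 (vegetative) and 8.41 (reproductive) for LOC_Os01g25484 and 7.29 and 8.11 for LOC_Os08g36480, and that of ferredoxin to LOC_Os01g25484 in the vegetative group -1.709. With a replicate block 3 of the 6 were again called for the reproductive shock and 2 for both shocks against control, and no count of members changed. Replicate numbers were not taken as pairing libraries, because the labels state no pairing. Deviations of same-numbered libraries correlated at -0.15 to 0.25 across loci, which cannot tell whether some of them share a batch. Sign changes were seen in uncalled values of LOC_Os08g36480, LOC_Os08g36500, LOC_Os02g53130 and LOC_Os01g25484 only. Depth limits LOC_Os02g53130, with 0 to 24 reads per library.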
